A study of Mus musculus with 44 samples.

Results

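The loss of *Pou5f1* and the loss of *Sox2* were compared directly in the chromatin of the late ICM. At each ATAC-seq peak the difference of effects was taken as the *Pou5f1*-KO effect (KO minus Ctrl) minus the *Sox2*-KO effect (KO minus Ctrl), so a peak with a negative difference was reduced more by the loss of *Pou5f1*, or raised more by the loss of *Sox2*. The comparison used 16 of the 44 libraries of the series, 4 in each of 4 groups, and all 152393 peaks. ATAC-seq reads out open chromatin as the density of insertions of the Tn5 transposase.

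The *Pou5f1*-KO embryos lacked the maternal and the zygotic gene and came from *Pou5f1* flox/flox; *Zp3*-Cre females and *Pou5f1* +/mKO2 males. The *Sox2*-KO embryos came from *Sox2* flox/flox; *Zp3*-Cre females and *Sox2* +/EGFP males. *Zp3*-Cre acts in the growing oocyte. Ctrl embryos were those of the same crosses that inherited the paternal wildtype allele, so they had a deleted maternal copy and 1 intact copy of the gene of their own line. Each KO was therefore measured against embryos with a single intact copy, and the line and the targeted gene cannot be told apart in the Ctrl groups. All 4 groups were labelled B6C3F1, collected at E2.5, cultured with 1 μM of the MEK inhibitor PD0325901 to the late blastocyst (E4.5) and isolated by immunosurgery. Each library pooled 20 to 40 ICMs, and nothing in the labels ties a library to a culture or a day. The p-values therefore measure the spread between such pools within conditions, estimated from all 44 libraries.

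OCT4, the product of *Pou5f1*, is a POU factor that binds an octamer. SOX2 is an HMG-box factor that binds a short SOX site. Together they bind the OCT-SOX composite site, in which a SOX and an OCT half-site lie side by side, at many enhancers of pluripotency genes. In the ICM both factors belong to the network of the epiblast, and OCT4 is also present in the precursors of the primitive endoderm.

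The sequences below were chosen because they show the words by which the groups of peaks differed. Each is a whole 200 bp peak of GRCm38 (mm10), plus strand, 5′ to 3′, and the capitals mark matches on either strand. In the first 5, which had a more negative difference, the capitals mark the OCT-SOX composite (15 bases, at most 3 mismatches). It overlaps the octamer ATGCNAAT in the *Gdf3* and *Esrrb* peaks, and the *Defb1* peak holds the octamer alone, in capitals there. In the *Esrrb* peak the octamer is the OCT part of the composite, and all 3 mismatches lie in the SOX part. In the *Gdf3* peak the octamer lies on the other strand, over most of the SOX part. The capitals in the *Gdf3* and *Esrrb* peaks therefore do not show an intact SOX site beside an intact OCT site.
nearest *Gm28415*, chr1:35841769-35841968: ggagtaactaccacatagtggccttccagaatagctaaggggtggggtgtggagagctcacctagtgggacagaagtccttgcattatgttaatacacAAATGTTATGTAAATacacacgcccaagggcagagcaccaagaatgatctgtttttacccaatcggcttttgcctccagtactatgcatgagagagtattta
Klf4-B enhancer, chr4:55477519-55477718: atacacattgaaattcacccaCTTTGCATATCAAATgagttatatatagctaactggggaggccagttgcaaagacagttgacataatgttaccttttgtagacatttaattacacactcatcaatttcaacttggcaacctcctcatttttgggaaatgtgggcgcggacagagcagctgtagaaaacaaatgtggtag
*Gdf3*, chr6:122608518-122608717: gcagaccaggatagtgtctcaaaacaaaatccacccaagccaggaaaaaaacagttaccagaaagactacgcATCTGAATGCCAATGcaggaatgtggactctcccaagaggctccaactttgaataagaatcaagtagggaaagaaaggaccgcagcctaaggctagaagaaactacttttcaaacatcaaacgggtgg
*Esrrb*, chr12:86470961-86471160: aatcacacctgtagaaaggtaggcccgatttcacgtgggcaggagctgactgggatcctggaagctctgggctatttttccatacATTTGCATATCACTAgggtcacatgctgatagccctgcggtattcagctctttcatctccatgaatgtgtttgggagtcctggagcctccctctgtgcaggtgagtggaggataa
*Defb1*, chr8:21783546-21783745: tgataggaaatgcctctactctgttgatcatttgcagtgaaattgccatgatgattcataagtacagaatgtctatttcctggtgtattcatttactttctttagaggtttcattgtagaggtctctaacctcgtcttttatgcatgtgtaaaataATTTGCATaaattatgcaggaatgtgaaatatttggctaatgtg
The next peaks were reduced by both knockouts, and the capitals mark the composite and the OCT-SOX core TTGTNATGC.
*Pecam1* enhancer, chr11:106724459-106724658: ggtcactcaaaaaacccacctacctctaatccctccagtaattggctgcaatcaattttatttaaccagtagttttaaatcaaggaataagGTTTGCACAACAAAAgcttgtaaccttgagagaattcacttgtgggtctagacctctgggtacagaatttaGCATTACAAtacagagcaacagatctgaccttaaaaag
*Utf1* enhancer, chr7:139945620-139945819: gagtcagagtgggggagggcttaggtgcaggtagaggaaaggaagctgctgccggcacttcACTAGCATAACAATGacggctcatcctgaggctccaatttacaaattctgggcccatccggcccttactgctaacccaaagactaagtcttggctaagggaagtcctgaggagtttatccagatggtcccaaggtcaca
The last peaks had a more positive difference, and the capitals mark the GATA word AGATAAG and the SOX word CCNTTGTT.
nearest *Trbc2*, chr6:41548489-41548688: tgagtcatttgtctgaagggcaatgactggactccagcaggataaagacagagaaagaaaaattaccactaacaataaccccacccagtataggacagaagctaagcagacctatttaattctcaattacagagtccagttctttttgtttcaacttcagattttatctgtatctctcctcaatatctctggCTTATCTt
*Cpa4*, chr6:30563660-30563859: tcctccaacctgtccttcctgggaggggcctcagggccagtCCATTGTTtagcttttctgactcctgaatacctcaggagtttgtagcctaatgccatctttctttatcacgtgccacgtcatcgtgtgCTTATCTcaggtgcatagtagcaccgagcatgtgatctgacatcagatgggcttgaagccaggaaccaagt

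Signal is given as rlog, a regularised log2 transform that pulls peaks with few insertions toward their mean over the libraries. The depth of each library is unknown here, since no insertion counts were used. The median rlog of the 16 libraries lay between 2.35 and 2.59. Pearson correlations between replicates over all peaks lay between 0.836 and 0.908. Library 1 was the lowest in both *Pou5f1* groups, at 0.836 to 0.846 with the other KO libraries (0.867 to 0.885 among those) and at 0.838 to 0.859 with the other Ctrl libraries (0.878 to 0.908 among those). In the targeted *Sox2* gene, the peak 480 bp upstream of the start site (chr3:34649826-34650025) lies in the deleted part of the KO allele. Its rlog was 0.49, 0.68, 0.65 and 1.05 in *Sox2*-KO and 2.35, 3.14, 3.13 and 3.28 in its Ctrl, so the groups did not overlap (effect −2.26, adjusted p = 1e-05 from limma). The peak in the *Sox2* coding exon (chr3:34650925-34651124) did not pass the test (effect −1.21, adjusted p = 0.092). The peak over exon 3 of *Pou5f1* (chr17:35509358-35509557) was at 3.45, 2.17, 2.54 and 2.25 in *Pou5f1*-KO and at 2.44, 2.99, 3.00 and 2.04 in Ctrl, and these groups overlapped (effect −0.02, adjusted p = 0.99 from limma). Its signal was not lower in the KO libraries. In its discussion the study says that exons 2 to 5 were taken out, which would include this exon. Its methods describe exons 2 to 5 as floxed in the flox allele. They describe the mKO2 allele by cassettes upstream of the gene and in intron 1. By immunostaining, the study reports that embryos with the mKO2 label had lost Oct4 protein. The Ctrl embryos hold a single copy of the exon, and whether the KO embryos hold a copy was not tested.

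The difference of effects passed an adjusted p-value of 0.05 at 1379 peaks. Of these, 844 (0.554% of all) had a more negative and 535 (0.351%) a more positive difference, so 61.2% of the called peaks were more negative. Quantile normalization kept 544 and 392 of these calls. With a replicate block both counts were higher, as given in the last section. With the 16 late ICM libraries fitted alone the counts were 1461 and 756. They were 483 and 305 without *Pou5f1* Ctrl library 4, and 498 and 287 without *Sox2*-KO library 2, and the more positive count was 344 without *Pou5f1* Ctrl library 3. Without *Pou5f1*-KO library 1 they were 627 and 387, and without *Pou5f1* Ctrl library 1 they were 924 and 672. Called differences ranged from −4.11 to −0.84 and from 1.13 to 3.58 on the log2 scale. Over all peaks the median difference was −0.04 and the median half-width of its 95% confidence interval was 1.20, so most differences under 1 were not detectable with these libraries. At the threshold, a peak near *Xpo6* had a difference of −2.14 just inside it, and a peak near *Slc35f2* had −1.98 just outside, with an adjusted p of 0.0505. In bulk pools of ICMs, fewer open cells and less opening per cell cannot be told apart.

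**Figure D1:**
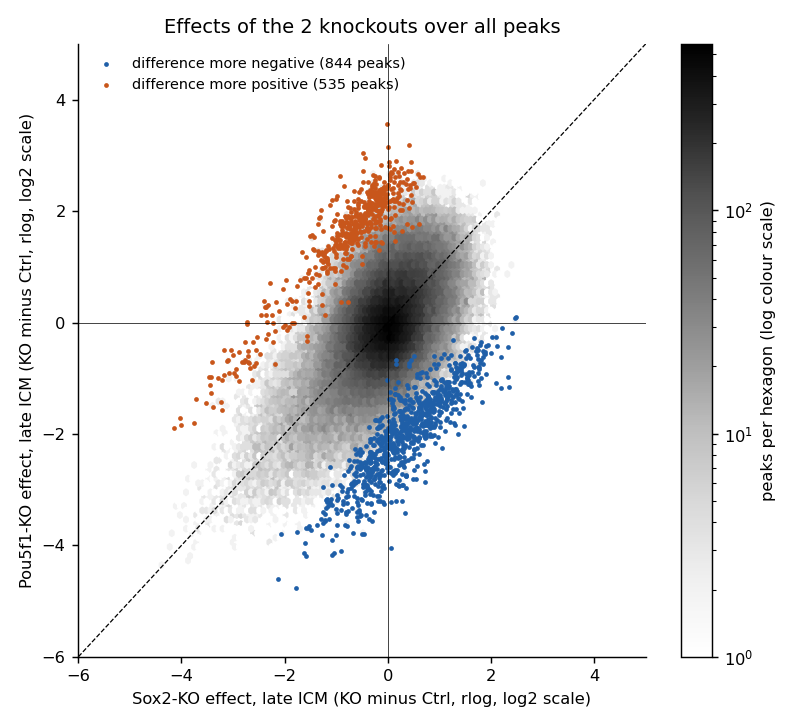
Effect of *Pou5f1*-KO (vertical axis) against that of *Sox2*-KO (horizontal axis) in late ICM, both as KO minus Ctrl in rlog (log2 scale). Grey hexagons count all 152393 peaks on a log colour scale, the dashed line marks equal effects, and the coloured points are the 844 peaks with a more negative and the 535 with a more positive difference. The called peaks flank the cloud on both sides, and most of the blue ones lie below 0 on the vertical axis near 0 on the horizontal one.

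The difference was called at few of the peaks that passed the test in 1 knockout and not in the other. *Pou5f1*-KO decreased 15404 peaks (10.1%) and increased 12481 (8.19%), and *Sox2*-KO decreased 7440 (4.88%) and increased 4129 (2.71%). This last count, on which the shares for increases in *Sox2*-KO rest, was 2363 without *Sox2*-KO library 3, 2640 without its library 2 and 2673 without *Sox2* Ctrl library 1. Of the peaks decreased in *Pou5f1*-KO, 10148 were not called in *Sox2*-KO, but the difference itself was called at 678 of them (6.68%). Of the 2193 peaks decreased in *Sox2*-KO and not called in *Pou5f1*-KO, the difference was called at 86 (3.92%). For increases the shares were 403 of 10910 (3.69%) and 93 of 2549 (3.65%). Conversely, 5175 peaks were decreased in both knockouts without a called difference, with a median difference of −0.08. Equality was not shown for most of these: among the 6776 peaks called in the same direction in both knockouts, 283 (4.18%) had an interval of the difference that stayed within 1 of 0.

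Peaks lost in *Pou5f1*-KO only were the largest class, with 678 of the 844 more negative peaks. Their median effect was −2.06 in *Pou5f1*-KO and 0.23 in *Sox2*-KO. Another 32 peaks were lost in both and more in *Pou5f1*-KO, 93 were gained in *Sox2*-KO only, 30 were lost in *Pou5f1*-KO and gained in *Sox2*-KO, and 11 were called in neither. The 93 had median effects of −0.75 in *Pou5f1*-KO and 1.57 in *Sox2*-KO. Of the 535 more positive peaks, 403 were gained in *Pou5f1*-KO only (median effects 1.92 and −0.39), 86 were lost in *Sox2*-KO only (0.12 and −2.14), 19 were lost in both and more in *Sox2*-KO, 21 were gained in *Pou5f1*-KO and lost in *Sox2*-KO, and 6 were called in neither. These classes follow from the same libraries as the difference and describe it.

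The difference of effects equals the difference between the KO groups minus that between the Ctrl groups. The called peaks were chosen by it, so their KO and Ctrl line differences describe the choice, here and at single peaks. At the 844 more negative peaks, the KO libraries of the 2 lines differed at 779 (92.3%, against 12.5% of all peaks) and the Ctrl libraries at 39 (4.62%, against 1.43% of all). The 2178 Ctrl calls behind that last share fell to between 914 and 1182 without any 1 of *Pou5f1* Ctrl libraries 2, 3 and 4 or *Sox2* Ctrl libraries 1, 2 and 4, and rose to 3317 with the 16 late ICM libraries alone. The median line difference was −2.18 between KO and 0.06 between Ctrl libraries. At the 535 more positive peaks the KO libraries differed at 454 (84.9%) and the Ctrl libraries at 41 (7.66%), and in all of these 41 the *Pou5f1* Ctrl was the lower one. There the median was 1.77 between KO and −0.56 between Ctrl libraries, against 0.01 between Ctrl libraries over all peaks.

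The most negative difference was at an intergenic peak 34894 bp from *Gm28415* and 226532 bp from *Hs6st1*, the nearest coding gene, which holds the first sequence above. Its rlog was 1.68, 1.92, 0.93 and 2.52 in *Pou5f1*-KO against 5.80, 5.58, 5.71 and 6.14 in Ctrl, and 6.08, 6.38, 5.95 and 5.23 in *Sox2*-KO against 5.41, 5.97, 6.07 and 5.93 in Ctrl. All *Pou5f1*-KO libraries lay below all others, and the *Sox2* groups overlapped. The difference was −4.11 (standard error 0.53, 95% confidence interval −5.16 to −3.06, adjusted p = 2.3e-07 from limma). A peak 100320 bp from *Gm22433* and 189640 bp upstream of *Mme*, which encodes the peptidase neprilysin, was at 2.02, 2.60, 2.87 and 2.24 in *Pou5f1*-KO and 5.89, 5.43, 5.76 and 6.30 in Ctrl. It was at 6.26, 6.2, 6.32 and 6.42 in *Sox2*-KO and 5.74, 5.68, 6.37 and 6.06 in Ctrl. The difference there was −3.75 (95% confidence interval −4.60 to −2.90, adjusted p = 2.8e-09 from limma), and again only the *Pou5f1*-KO libraries were low.

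The 8 peaks described for this direction were the largest called differences among peaks without overlap of KO and Ctrl in the line with the larger effect, so the gap in that line follows from the choice. At 4 more of them the *Pou5f1*-KO libraries were low and the other 12 were high. They lie near *Rai14*, *Tnfrsf8*, *B4galt6* and *Tmem39a*. *Tnfrsf8* encodes the receptor CD30, and its peak in an intron (chr4:145306580-145306779) was at 1.96, 1.06, 1.20 and 1.56 in *Pou5f1*-KO and at 3.80 to 4.86 in the other libraries (difference −3.38, adjusted p = 7.8e-05 from limma). *B4galt6* encodes a galactosyltransferase, and its peak was at 0.36 to 0.93 in *Pou5f1*-KO and at 3.28 to 5.14 elsewhere (difference −3.59). At *Tmem39a*, 1346 bp upstream, *Pou5f1*-KO was at 1.52 to 3.00 and the others at 4.38 to 6.14 (difference −3.36), and at the *Rai14* peak the values were 1.09 to 2.36 and 3.83 to 5.32 (difference −3.48). At the remaining 2 of the 8, near *Drc1* and *Dlgap2*, the gain in *Sox2*-KO was larger than the loss in *Pou5f1*-KO. Near *Drc1*, which encodes a dynein regulator of motile cilia, *Sox2*-KO was at 3.9, 3.19, 4.25 and 3.77 and its Ctrl at 0.42, 0.96, 2.04 and 2.25, a gain of 2.36 (adjusted p = 0.0002 from limma). *Pou5f1*-KO did not pass the test there (−1.17, adjusted p = 0.079 from limma).

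**Figure D2:**
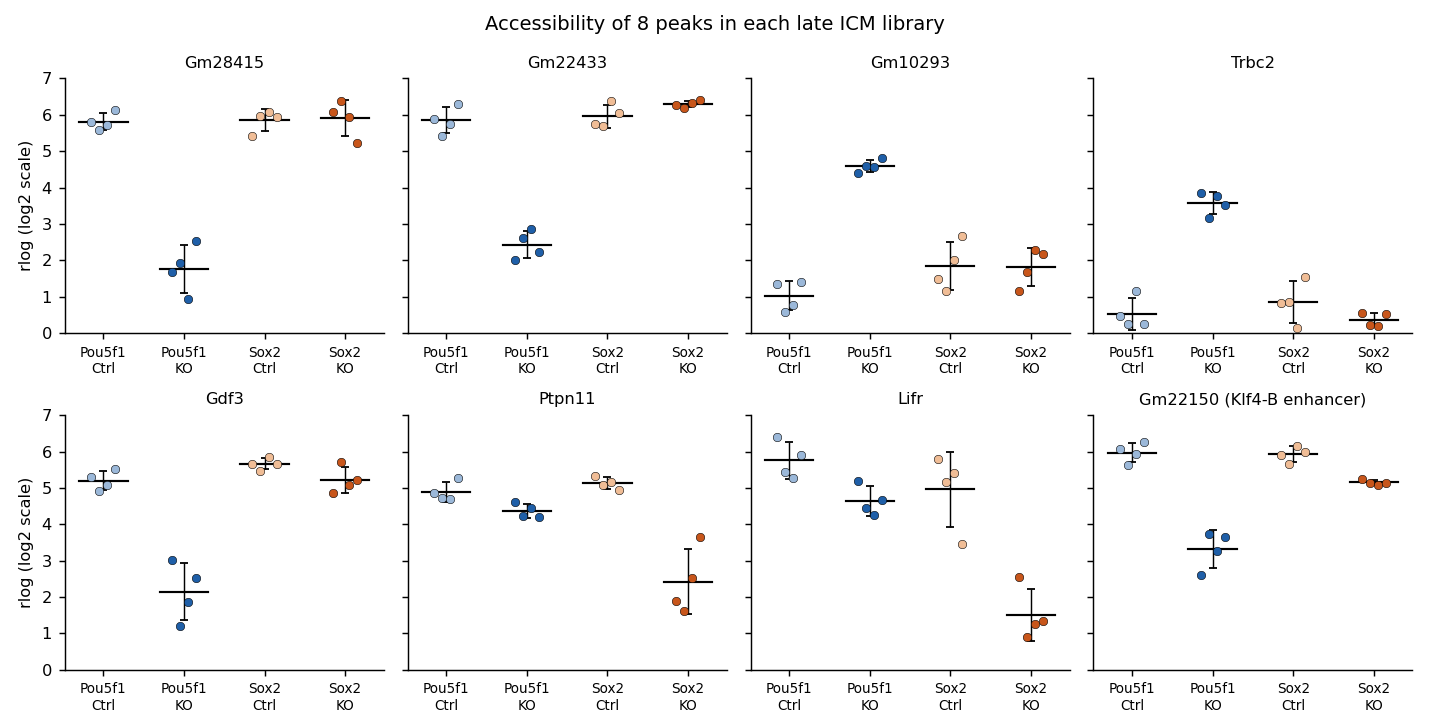
rlog (log2 scale) of 8 peaks in each of the 16 late ICM libraries, 4 per group, with points for libraries, long bars for means and whiskers for SD. At *Gm28415*, *Gm22433*, *Gdf3* and the Klf4-B enhancer the *Pou5f1*-KO libraries are the low ones, at *Gm10293* and *Trbc2* they are the high ones, and at *Ptpn11* and *Lifr* the *Sox2*-KO libraries are the lowest on average.

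The peaks with the most positive difference were gained in *Pou5f1*-KO. The 8 described here were chosen by the same rule, so the gap in the line with the larger effect follows from the choice. The first of them, an intergenic peak 43434 bp from *Gm10293*, was at 4.41, 4.58, 4.57 and 4.80 in *Pou5f1*-KO and at 1.36, 0.58, 0.77 and 1.40 in Ctrl. It stayed at 1.15, 1.68, 2.28 and 2.17 in *Sox2*-KO and 1.49, 1.15, 2.02 and 2.68 in Ctrl, and the difference was 3.58 (95% confidence interval 2.40 to 4.76, adjusted p = 0.00012 from limma). All *Pou5f1*-KO libraries lay above the other 12. The peak near *Trbc2*, a constant segment of the T cell receptor, holds a GATA word at its end and was at 3.86, 3.16, 3.76 and 3.51 in *Pou5f1*-KO, at 0.47, 0.25, 1.16 and 0.24 in Ctrl and at no more than 1.55 in the *Sox2* line (difference 3.52, adjusted p = 0.00019 from limma). At *Cpa4*, a carboxypeptidase gene, the peak with a GATA and a SOX word was at 4.68 to 5.33 in *Pou5f1*-KO and at 1.68 to 3.58 in the other libraries (difference 3.30). The other 5 peaks were near *Htr4* (a serotonin receptor), *Mark2* (a polarity kinase), *Gm12447*, *Tdp1* (a DNA repair enzyme) and *Gm1600*, with differences of 3.55, 3.40, 3.31, 3.28 and 3.26. At *Tdp1* the Ctrl libraries also differed between the lines (−1.51, adjusted p = 0.046 from limma).

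Some peaks moved in opposite directions. Both knockouts were called with opposite signs at 51 peaks, and the difference was called at all 51. Opposite effects add up in their difference, so this call largely follows from the choice of peaks. The 4 largest were lost in *Pou5f1*-KO and gained in *Sox2*-KO. In an intron of *Dlgap2*, a gene of the postsynaptic scaffold, *Pou5f1*-KO was at 0.52, 0.23, 0.55 and 0.28 and its Ctrl at 1.39, 2.08, 0.44 and 2.38, and 1 Ctrl library lay among the KO values. *Sox2*-KO was at 3.69, 4.90, 4.13 and 3.59 and its Ctrl at 1.97, 2.21, 1.52 and 1.83, without overlap. The effects were −1.18 and 2.19, and the difference −3.37 (adjusted p = 0.00054 from limma). The peak near *1810034E14Rik*, in the *Cdc14b* region, changed by −1.99 and 1.37. The peak at the defensin gene *Defb1*, which holds an octamer, changed by −1.85 and 1.48, and its 2 Ctrl groups differed by 1.63 (adjusted p = 0.034 from limma). The peak 128030 bp upstream of *Mex3c*, which encodes an RNA-binding protein, changed by −1.42 and 1.82.

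The enhancers whose positions the study lists showed how the contrast fell on known elements. All 9 overlapped a peak over its whole length, and the difference was called at 1 of them. At the Klf4-B enhancer, 54152 bp downstream of the pluripotency factor gene *Klf4*, the rlog was 2.60, 3.74, 3.26 and 3.65 in *Pou5f1*-KO and 6.08, 5.62, 5.94 and 6.25 in Ctrl, without overlap. It was 5.24, 5.14, 5.09 and 5.14 in *Sox2*-KO and 5.90, 5.65, 6.15 and 6.0 in Ctrl, also without overlap but with a smaller step. The effects were −2.66 (adjusted p = 3.4e-10 from limma) and −0.78 (adjusted p = 0.15), and the difference was −1.88 (95% confidence interval −2.81 to −0.96, adjusted p = 0.022). The call was lost in 3 of the 16 fits that left out a library, with an adjusted p of 0.078 without *Pou5f1*-KO library 1.

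At the *Pecam1* enhancer, by contrast, both knockouts lowered the signal, and the difference was near 0. The rlog was 1.37, 1.73, 0.69 and 1.46 in *Pou5f1*-KO and 1.01, 1.24, 1.83 and 2.09 in *Sox2*-KO, against 4.45, 5.07, 5.57 and 5.21 and 5.75, 5.50, 5.52 and 4.77 in the Ctrl groups. The effects were −3.76 and −3.84, and the interval of their difference ran from −1.10 to 1.25. The enhancer of *Utf1*, an embryonic stem cell gene, fell by 3.09 and 2.39, with an interval of the difference from −1.77 to 0.36. The enhancers of *Klf2* and *Prdm14* had differences of 0.38 and 0.24, and both were decreased in each knockout. The SRR2 enhancer downstream of *Sox2* changed by −3.10 in *Pou5f1*-KO and −1.53 in *Sox2*-KO, but the difference of −1.58 (95% confidence interval −2.79 to −0.37) did not pass the adjusted test (adjusted p = 0.22 from limma). The proximal enhancer of *Nanog* had a difference of −1.18 (adjusted p = 0.23 from limma). The distal enhancer of *Nanog* and the CR4 enhancer of *Pou5f1* were called in neither knockout, with differences of −0.22 and −0.35.

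**Figure D3:**
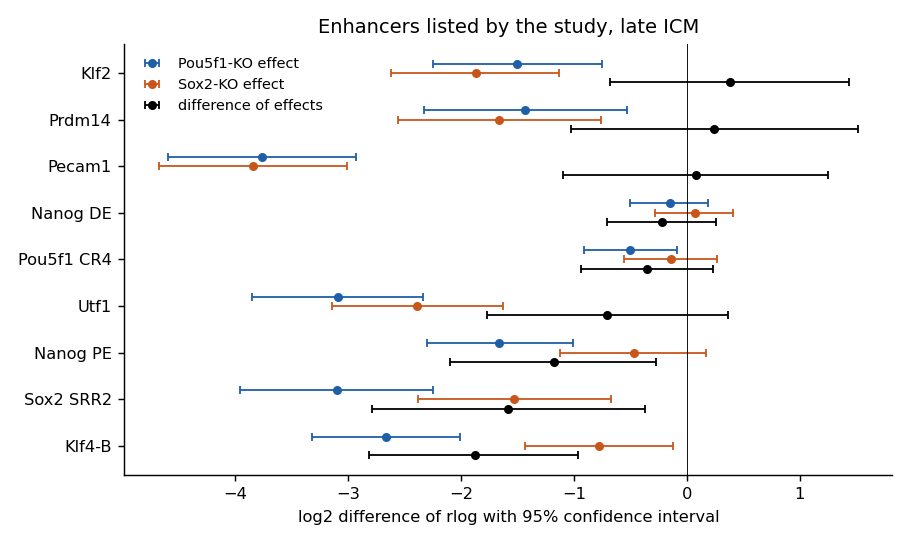
Effects of *Pou5f1*-KO and *Sox2*-KO and their difference at the 9 listed enhancers in late ICM, with 4 libraries per group, on the log2 scale of rlog. The 95% confidence intervals use the spread estimated in the fit of all 44 libraries. The intervals of the difference (black) are wide, and only that of Klf4-B belongs to a called peak.

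Among lists of genes, the naive pluripotency list, which has the most peaks, held the most called ones by number. Of the 284 peaks within 10 kb of the start sites of its 30 genes, 8 had a more negative and 0 a more positive difference by limma (2.82% called, against 0.905% of all peaks in either direction), an unadjusted p under 0.05 was found at 43 and 5 (against 6.67% and 5.81% of all peaks), and the median difference was −0.34 against −0.04 over all peaks. By share the primitive endoderm list was higher, at 4.0%, and within 50 kb of start sites the shares were 1.53% and 2.04%. The naive list had 68 peaks decreased in *Pou5f1*-KO (23.9%, against 10.1% of all peaks) and 29 in *Sox2*-KO (10.2%, against 4.88%). In an intron of *Gdf3*, which encodes a TGF-β family ligand, the peak shown above was at 3.02, 1.20, 1.86 and 2.52 in *Pou5f1*-KO and 5.30, 4.91, 5.07 and 5.52 in Ctrl. It was at 4.87, 5.71, 5.09 and 5.22 in *Sox2*-KO and 5.66, 5.47, 5.85 and 5.65 in Ctrl, and the *Sox2* groups overlapped at 1 library. The difference was −2.62 (95% confidence interval −3.65 to −1.58, adjusted p = 0.0023 from limma).

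*Esrrb*, which encodes an orphan nuclear receptor of the naive network, had 4 called peaks among the 40 for which it was the nearest coding gene (against 0.905% of all peaks), all more negative, and was one of the genes with the most called peaks. The one in the gene 944 bp downstream of an internal start site was at 3.70, 3.20, 3.95 and 3.01 in *Pou5f1*-KO, 5.47, 5.79, 5.41 and 5.08 in Ctrl, 6.14, 5.79, 5.34 and 5.45 in *Sox2*-KO and 5.74, 5.56, 5.6 and 5.46 in its Ctrl (difference −2.07, adjusted p = 0.0071 from limma). Only the *Pou5f1*-KO libraries stood apart. The one in the gene 3800 bp upstream of an internal start site had a difference of −2.11 (adjusted p = 0.014 from limma), which was −1.74 with an adjusted p of 0.078 without *Pou5f1*-KO library 1.

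The LIF and STAT3 pathway sustains the naive state in culture. Of its 118 peaks 0 were more negative and 2 more positive by limma (1.69%, against 0.905% of all peaks), with a median difference of −0.02, and an unadjusted p under 0.05 was found at 1 and 7. Within 50 kb, 1 of 387 peaks was more negative and 2 were more positive (0.775%). *Ptpn11* encodes the phosphatase SHP2, which acts below cytokine receptors. Its peak 5958 bp upstream was at 1.88, 1.62, 2.52 and 3.65 in *Sox2*-KO and 5.32, 5.07, 5.16 and 4.95 in Ctrl, without overlap. It was at 4.61, 4.22, 4.45 and 4.19 in *Pou5f1*-KO and 4.87, 4.71, 4.69 and 5.26 in Ctrl, and the difference was 2.19 (95% confidence interval 1.25 to 3.13, adjusted p = 0.0061 from limma). The peak 8574 bp upstream of *Lifr*, the LIF receptor gene, was at 2.56, 0.90, 1.27 and 1.34 in *Sox2*-KO and 5.80, 5.16, 5.42 and 3.47 in Ctrl, and at 5.19, 4.45, 4.25 and 4.66 in *Pou5f1*-KO and 6.40, 5.45, 5.27 and 5.91 in Ctrl. Both knockouts decreased it, with effects of −3.45 in *Sox2*-KO and −1.12 in *Pou5f1*-KO, and the difference was 2.33 (adjusted p = 0.018 from limma). That call was lost in 4 of the 16 fits with a library left out, with adjusted p-values up to 0.071.

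The trophectoderm list had 1 more negative and 1 more positive peak of 209 (0.957%), a share near the 0.905% of all peaks. In the intron of *Cdx2*, the trophectoderm transcription factor gene, the *Pou5f1*-KO effect was −1.99 and the difference was −2.40 (adjusted p = 0.033 from limma). A peak in *Lgals3*, which encodes galectin-3, was higher in *Pou5f1*-KO by 1.72, with a difference of 2.47 (adjusted p = 0.029 from limma). These calls were lost in 8 and in 6 of the 16 fits with a library left out. The mean rlog over the 209 peaks was 3.71 to 3.96 in *Pou5f1*-KO against 3.50 to 3.81 in Ctrl, and 3.88 to 4.10 in *Sox2*-KO against 3.53 to 3.66 in Ctrl. Over the 284 naive pluripotency peaks it was 3.35 to 3.41 against 3.81 to 4.06, and 3.71 to 3.82 against 3.88 to 4.06. The part of remaining trophectoderm cells in the results was not tested.

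The primitive endoderm list had 3 more negative and 3 more positive peaks of 150 (4.0%, against 0.905% of all peaks), and its median difference was −0.01. In an intron of *Lamc1*, a laminin chain of the basement membrane, *Pou5f1*-KO was at 1.03, 1.52, 0.91 and 0.74 and all other libraries at 2.67 to 4.39 (difference −2.85, adjusted p = 0.0035 from limma). At *Hnf4a*, a transcription factor gene of the visceral endoderm, the effects were −1.26 and 1.13, the latter with an adjusted p of 0.058 from limma. The *Sox2*-KO libraries there lay between 4.33 and 5.35, above all *Sox2* Ctrl libraries, and the difference was −2.39 (adjusted p = 0.012). *Cubn*, which encodes the endocytic receptor cubilin, had a peak at 5.47, 5.15, 5.26 and 4.98 in *Pou5f1*-KO and between 2.32 and 4.47 in the other libraries (difference 2.21, adjusted p = 0.011 from limma). The mean rlog over the 150 peaks was 2.82 to 3.11 in *Pou5f1*-KO, 2.88 to 3.02 in its Ctrl, 2.96 to 3.23 in *Sox2*-KO and 2.87 to 3.09 in its Ctrl, so all groups overlapped their Ctrl.

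The other lists held 0 to 2 called peaks each, against a share of 0.905% over all peaks. Of the 192 peaks of chromatin regulators 2 were more negative and 0 more positive by limma (1.04% called, 13 and 4 at an unadjusted p under 0.05), near *Hdac1* (difference −2.5), a histone deacetylase gene, and at *Uhrf1* (difference −2.08), whose product guides maintenance DNA methylation. The *Uhrf1* difference was −1.53 with an adjusted p of 0.20 from limma when *Sox2* Ctrl library 4 was left out, and the *Hdac1* call was lost in 9 of the 16 fits with a library left out. The Hippo list had 1 of 214 (0.467%), at the kinase gene *Lats2* (difference −2.13, adjusted p = 0.049 from limma), a call lost in 15 of the 16 fits with a library left out. The POU family list had 1 of 54 (1.85%), at the start of *Pou2f3*, where *Pou5f1*-KO was at 1.53, 1.09, 1.21 and 1.16 and all other libraries at 3.74 to 5.16 (difference −2.84, adjusted p = 0.00079 from limma). The Nodal and BMP list had 1 of 119 (0.84%), a more positive peak in *Smad2*, which encodes a signal transducer of Nodal and where the *Sox2*-KO effect was −2.37 (difference 2.64, adjusted p = 0.0021 from limma). Under limma, 0 of the 86 peaks of formative and primed state genes, 0 of the 169 of the FGF and ERK pathway, 0 of the 97 of pyruvate and glutathione metabolism and 0 of the 76 of the SOX family were called. An unadjusted p under 0.05 with a negative and a positive sign was found at 6 and 2, 9 and 7, 7 and 4, and 12 and 2 of these peaks, against 6.67% and 5.81% of all peaks.

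Several called peaks lay at some genes. The genes in this paragraph were chosen after their values were seen, and peaks of a locus are not independent of each other. By the nearest coding start site, *Col14a1*, a collagen gene, had the most, with 9 of its 36 peaks, all more negative and all lost in *Pou5f1*-KO only. They lay 19162 to 71944 bp upstream of the gene, with differences between −2.87 and −1.58. *Fn1*, which encodes fibronectin, had 7 more negative peaks and 1 more positive one among 44. The peak at the start site of *Fn1*, 10 bp away, had a *Pou5f1*-KO effect of −2.45 and a *Sox2*-KO effect of −0.04. *Tnfrsf8* had 5 of 15 peaks and *Mme* 4 of 24, all more negative. *Sox2* itself had 4 more negative peaks of 59, between 48742 and 110118 bp downstream. Of these, 3 were lost in *Pou5f1*-KO only, with an effect of −2.66 at the farthest, and the one at 48742 bp was gained in *Sox2*-KO only, by 1.68. Within 5 Mb of *Sox2* the difference was called at 2.21% of 543 peaks, and within 5 Mb of *Pou5f1* at 0.725% of 965, against 0.905% of all peaks.

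Few peaks with called differences lay at start sites. Of the more negative peaks 18 (2.13%) and of the more positive 5 (0.935%) had their centre within 100 bp of a start site, against 7.79% of all peaks. The share was also low among all peaks changed by either knockout, at 4.39% of those decreased and 1.76% of those increased in *Pou5f1*-KO, and at 1.59% and 1.4% in *Sox2*-KO. Introns held 48.6% and 48.0%, against 47.4% of all peaks, and intergenic DNA 47.6% and 48.0%, against 42.4%. Median GC content was 46.5% and 48.5%, against 50.0% over all peaks.

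The sequence words differed between the classes. The octamer ATGCNAAT was in 202 of the 678 peaks lost in *Pou5f1*-KO only (29.8%), against 4.11% of all peaks. It was in 13.3% of the 5175 peaks decreased in both without a called difference and 3.49% of the 86 peaks lost in *Sox2*-KO only. Among the 9470 peaks decreased in *Pou5f1*-KO only without a called difference it was in 11.2%. The composite was in 28.4% of the peaks decreased in both without a called difference. It was in 17.1% of those lost in *Pou5f1*-KO only, against 3.44% of all peaks. An octamer can count as the OCT part of a composite with 3 mismatches, so the shares of these words overlap. The octamer or the composite was in 35.0% of the peaks decreased in both and in 37.5% of those lost in *Pou5f1*-KO only. Beyond the octamer shares of 13.3% and 29.8%, the composite therefore added less in the peaks lost in *Pou5f1*-KO only. The 32 peaks lost in both and more in *Pou5f1*-KO held the composite at 50.0% and the octamer at 25.0%. An octamer without a composite was in 20.4% of the peaks lost in *Pou5f1*-KO only, 6.61% of those decreased in both and 3.32% of all. With at most 2 mismatches the composite was in 4.57% of the peaks lost in *Pou5f1*-KO only and 9.26% of those decreased in both. The 93 peaks gained in *Sox2*-KO only also held the octamer, at 18.3%. These shares are descriptions and were not tested.

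In the called classes lost more in *Sox2*-KO the ESRRB word CAAGGTCA led. It was in 25 of the 86 peaks lost in *Sox2*-KO only (29.1%) and in 8 of the 19 lost in both and more in *Sox2*-KO (42.1%). Its share was 5.95% of all peaks, 9.35% of the peaks decreased in both without a called difference and 12.2% of those lost in *Pou5f1*-KO only. Among the 2107 peaks decreased in *Sox2*-KO only without a called difference it was in 9.4%. All 7440 peaks decreased in *Sox2*-KO held the ESRRB word at 9.64% and the composite at 23.1%. The SOX word CCNTTGTT was in 10.5% of the peaks lost in *Sox2*-KO only, 3.39% of those lost in *Pou5f1*-KO only and 3.21% of all, but also in 9.39% of the peaks decreased in both without a called difference and in 8.95% of all peaks decreased in *Sox2*-KO. The octamer and the composite were in 0 of the 19 peaks lost more in *Sox2*-KO. Among the 403 peaks gained in *Pou5f1*-KO only, the GATA word AGATAAG was in 111 (27.5%), against 7.71% of all peaks, and the octamer was in 2. The GATA word was in 20.5% of all peaks increased in *Pou5f1*-KO and in 26.8% of the peaks increased in both without a called difference.

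**Figure D4:**
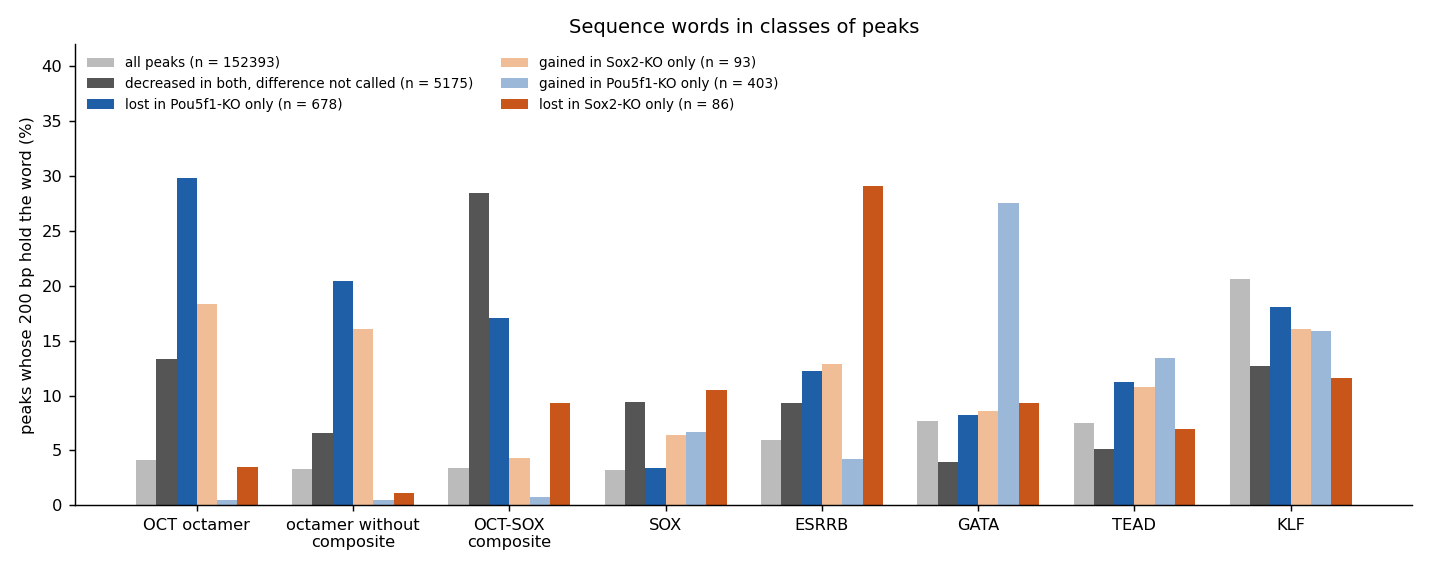
Share of peaks (%) whose 200 bp hold each sequence word on either strand, for all peaks, for peaks decreased in both knockouts without a called difference, and for 4 classes of peaks with a called difference in late ICM. Of the sets plotted, the octamer is highest in peaks lost in *Pou5f1*-KO only (29.8%) and the composite in peaks decreased in both (28.4%). In the same sets the ESRRB word is highest in peaks lost in *Sox2*-KO only (29.1%) and the GATA word in peaks gained in *Pou5f1*-KO only (27.5%).

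Grouping all peaks by their words, without use of the calls, gave these shares. Over all peaks, 10.1% were decreased and 8.19% increased in *Pou5f1*-KO, 4.88% and 2.71% in *Sox2*-KO, and the difference was more negative at 0.554% and more positive at 0.351%. Of the 5248 peaks with a composite, 48.3% were decreased in *Pou5f1*-KO and 32.8% in *Sox2*-KO, and the difference was more negative at 2.61% and more positive at 0.229%. Of the 1245 peaks with the OCT-SOX core, the shares decreased were 51.6% and 42.4%, and the median difference was −0.07. Of the 5067 peaks with an octamer but no composite, 24.6% were decreased in *Pou5f1*-KO and 8.66% in *Sox2*-KO, and the difference was more negative at 162 (3.2%) and more positive at 3 (0.0592%). The 1201 peaks with both words had the lowest median difference of these groups, −0.62, with 72 more negative peaks (6.0%). In these peaks the octamer and the composite can share bases. The 4483 peaks with a SOX word and no composite had 31 more negative (0.692%) and 38 more positive differences (0.848%). The 10960 peaks with a GATA word and neither octamer nor composite were increased at 22.6% in *Pou5f1*-KO and 7.21% in *Sox2*-KO, and 124 of their differences were more positive (1.13%) against 41 more negative (0.374%).

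The early ICM (E3.75) gave the same contrast in 16 other libraries. There 567 peaks (0.372%) had a more negative and 469 (0.308%) a more positive difference of effects. The fit used no replicate block here, although the *Pou5f1* early ICM libraries were taken as paired. With the block both counts were higher, as given in the last section. Of the 844 peaks more negative in late ICM, limma called 192 (22.7%) more negative in early ICM and 0 in the other direction (1 if p was left unadjusted at 0.05), and 797 (94.4%) had a negative value against 54.1% of all peaks. Of the 535 more positive peaks, limma called 67 (12.5%) more positive in early ICM and 0 in the other direction (also 0 if p was left unadjusted at 0.05), and 493 (92.1%) had a positive value. The median difference in early ICM was −1.35 and 1.13 at these peaks. The peak near *Gm22433* had a difference of −3.12 in early ICM (adjusted p = 1.6e-06 from limma) and the *Tmem39a* peak −3.30 (adjusted p = 8.5e-05 from limma). At *Mark2* it was 0.26 (adjusted p = 0.93), against 3.40 in late ICM. A change of the difference from early to late ICM was called at 0 peaks by limma, and an unadjusted p under 0.05 was found at 3533 peaks with a negative and 4500 with a positive change.

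The peaks lost in *Pou5f1*-KO only were followed from the morula on. Their mean rlog in *Pou5f1* Ctrl was 3.03 ± 0.04 for morula and 2.89 ± 0.14 for late morula (SD, n = 3), then 3.91 ± 0.12 for early and 4.25 ± 0.11 for late ICM (SD, n = 4). Over all peaks the Ctrl means were 2.57 for morula and 2.64 for late morula, and over the 76197 peaks whose mean rlog was no lower than that of the median peak they were 3.47 and 3.6. In *Pou5f1*-KO the class was at 2.41 ± 0.39, 2.11 ± 0.05, 2.41 ± 0.08 and 2.12 ± 0.09 (SD) at these stages, and in *Sox2*-KO 3.95 ± 0.16 and 4.34 ± 0.13 (SD) in early and late ICM. *Pou5f1*-KO had already decreased 55 of the 844 more negative peaks in morula (6.52%, against 0.185% of all) and 142 in late morula (16.8%, against 0.539% of all). With library number as a replicate block, since the late morula libraries were paired, the late morula numbers were 179 of the 844 (21.2%) and 1357 of all peaks against 822 without it. Of the 535 more positive peaks, limma called 1 increased in morula (0.187%, against 0.0518% of all) and 2 in late morula (0.374%, against 0.108% of all), or 5 with the block, and 23 (4.3%) and 59 (11%) at an unadjusted p under 0.05, against 3.61% and 3.79% of all peaks. It called 0 decreased in morula and 0 in late morula, with 9 (1.68%) and 6 (1.12%) at an unadjusted p under 0.05, against 4.63% and 4.92% of all peaks. No difference of effects was taken at these stages, since *Sox2*-KO morulae were not analysed here.

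Peaks gained in *Pou5f1*-KO only averaged 3.01 ± 0.11 rlog in 3 Ctrl morula libraries and 1.92 ± 0.10 in 4 late ICM libraries of the *Pou5f1* Ctrl (SD). The matching *Pou5f1*-KO levels were 3.11 ± 0.09 for morula and 3.87 ± 0.08 for late ICM (SD). The *Sox2* Ctrl was at 2.54 ± 0.07 (SD, n = 4) in late ICM, above the *Pou5f1* Ctrl, and *Sox2*-KO at 2.14 ± 0.07 (SD, n = 4). Peaks lost in *Sox2*-KO only were at 3.57 ± 0.09 (SD, n = 3) in Ctrl morula, and *Sox2*-KO lowered 43 of the 86 (50.0%, against 1.91% of all) in early ICM. Their level in *Sox2*-KO was 2.49 ± 0.24 in early and 2.11 ± 0.23 in late ICM (SD, n = 4). Peaks gained in *Sox2*-KO only had *Sox2*-KO levels of 2.84 ± 0.15 at the early and 3.62 ± 0.11 at the late stage (SD, n = 4), and 1 of these 93 was called increased in early ICM (1.08%, against 0.238% of all).

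**Figure D5:**
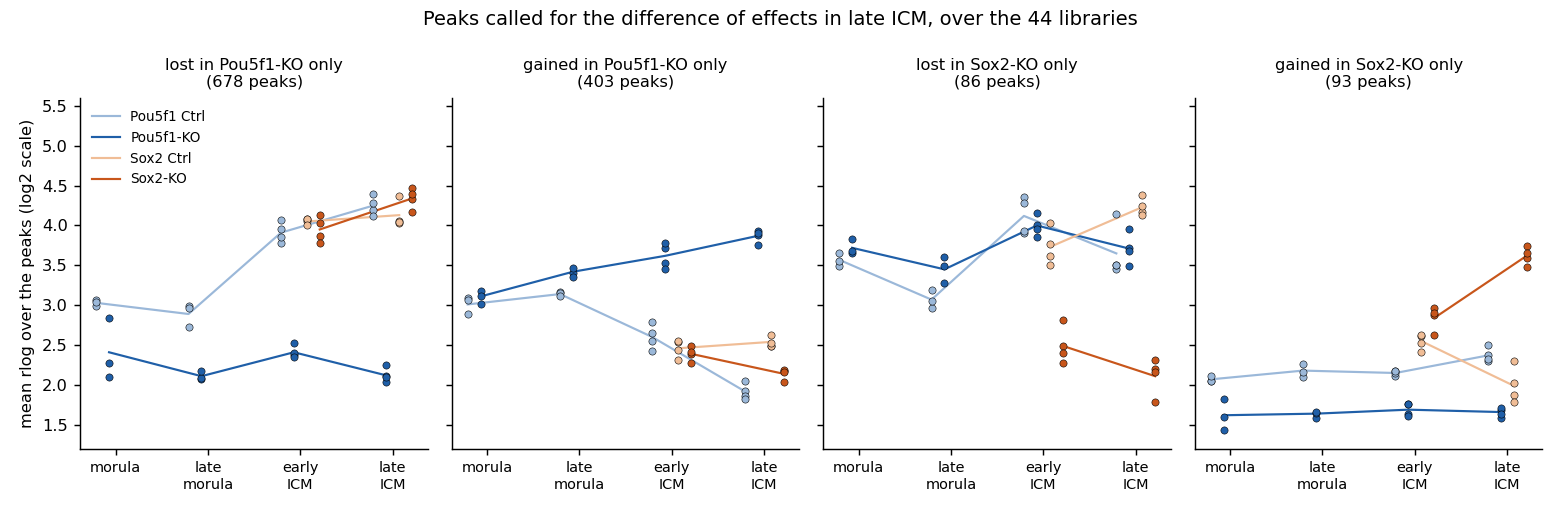
Mean rlog (log2 scale) over the peaks of 4 classes in each of the 44 libraries, by stage, with points for libraries and lines through the means of each genotype. The classes were called in late ICM, so the late ICM points describe the calls and the other stages are separate libraries. *Pou5f1*-KO is low from the morula on in the class lost in *Pou5f1*-KO only, and *Sox2*-KO is low in early ICM in the class lost in *Sox2*-KO only.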

How the data were processed

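ATAC-seq signal was measured in 44 libraries of mouse morulae and ICMs in 12 conditions, of which the 16 late ICM libraries carry the comparison. The log2 values were deposited by the authors as rlog values of 152393 peaks of 200 bp. Per the study's methods, reads were trimmed with SeqPurge and aligned to mm10 with Bowtie2, duplicates were removed with Picard, insertions were shifted for Tn5, peaks were called with MACS2 and kept if found in at least 2 replicates, and BEDTools counts were transformed to regularised log values. Tool versions were not given in the sources used here. The rlog shrinks weak peaks toward their mean, so their changes are understated. No counts were used, so depth is unknown and no count test was run.

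All 44 libraries were fitted with limma 3.58.1 (R 4.3.3) with 12 condition means and a trended variance prior (32 residual degrees of freedom), p-values were adjusted by Benjamini-Hochberg over all peaks, and peaks were called at an adjusted p under 0.05, with no filter on low values. Genes came from GENCODE vM21 (GRCm38), with distances from peak centres to the nearest start site of any transcript of the gene, and lists used start sites within 10 kb. Sequence words were searched on both strands. Named peaks were the 8 largest called differences in each direction without overlap of KO and Ctrl libraries in the line with the larger effect, the 9 enhancers listed by the study, up to 3 called peaks per gene list, peaks within 2 kb of *Pou5f1* and *Sox2*, and the 4 largest differences called oppositely. Sequences were shown from these, and those of *Gdf3* and *Esrrb* were added after their values were seen. The members and lists were chosen with earlier results of these data known. Same-number KO and Ctrl libraries were taken as paired where every correlation of their deviations from the group means was over 0.1. This held from the data, not the labels, for the *Pou5f1* late morula (0.109 to 0.192) and early ICM (0.121 to 0.162), and not for late ICM. The fit was tested on simulated data. Alternatives changed the libraries, the peaks, the normalization, the prior, the replicate block and each library in turn.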

Additional observations from a re-analysis of the deposited data

Results flagged for a closer look

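In 11 of 196 groups of 4 libraries at the named peaks, 1 library lay far from the other 3, and chance alone marks about 1 in 20 groups. At the *Esrrb* peak 3800 bp upstream of an internal start site, 1 *Pou5f1*-KO library was at 2.84 (others 4.25 to 4.34) and 1 *Sox2*-KO library at 5.58 (others 6.24 to 6.34). At *Uhrf1* 1 *Sox2* Ctrl library was at 2.58 (others 4.64 to 4.98). *Cubn* had a *Sox2*-KO library at 2.32 (others 3.36 to 3.50), *Drc1* a *Pou5f1*-KO library at 1.77 (others 0.25 to 0.49) and *Rai14* a *Pou5f1* Ctrl library at 5.32 (others 4.80 to 4.85). *Tdp1* had a *Pou5f1*-KO library at 2.04 (others 3.34 to 3.60) and a *Sox2*-KO library at 2.20 (others 1.01 to 1.14). At *Pou5f1* the peak 30 bp upstream of the start site had a *Pou5f1* Ctrl library at 4.09 (others 5.10 to 5.15), and the peak in the gene 540 bp upstream of an internal start site a *Pou5f1*-KO library at 3.00 (others 4.61 to 4.81). The *Sox2* peak 480 bp upstream had a *Sox2* Ctrl library at 2.35 (others 3.13 to 3.28).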

How the results depend on the processing

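With 4 pools per group, differences under about 1 on the log2 scale were mostly not detectable. In no alternative was a called difference reversed. Of the 844 and 535 called peaks, 844 and 535 were also called with the replicate block, and 544 and 392 with quantile normalization, which moved the median difference from −0.04 to 0. By the cutoff of 0.1, library numbers were not taken to pair the late ICM libraries. Same-number correlations of deviations ran from −0.0248 to 0.164 there, most of them positive, and 1 of the pairs was over 0.1. In the morula and in the *Sox2* early ICM 1 pair each was below that, at 0.0479 and 0.0859. With the replicate block the counts were 1870 more negative and 1391 more positive in late ICM, 1476 and 1287 in early ICM, 6433 increased in *Sox2*-KO, and 771 and 1357 decreased in *Pou5f1*-KO morula and late morula. With the 16 late ICM libraries alone they were 1461 more negative and 3317 between Ctrl lines. Quantile normalization gave 544 more negative in late ICM and 497 decreased in morula, and a variance prior without a trend gave 124 in morula. With peaks at or above the median rlog, fewer peaks were tested, and the counts were 7674 decreased and 7714 increased in *Pou5f1*-KO, 3150 decreased in *Sox2*-KO, 1107 between Ctrl lines and 11440 between KO lines. Leaving out 1 library gave 483 to 936 more negative and 287 to 672 more positive, 2363 to 4258 increased in *Sox2*-KO (lowest without *Sox2*-KO library 3, 2640 without its library 2, 2673 without *Sox2* Ctrl library 1) and 914 to 2675 between Ctrl lines (lowest without *Pou5f1* Ctrl library 3, and 990, 1182, 949, 994 and 1156 without *Pou5f1* Ctrl libraries 4 and 2 and *Sox2* Ctrl libraries 1, 2 and 4). The causes were not tested. Of the 35 named peaks with a called difference, 27 were called in every fit with a library left out.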
